A study of Mus musculus with 4 samples.

Results

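The 10 integrin genes described here encode receptors for collagen, laminin, fibronectin, and other matrix or cell-surface ligands. They are *Itga1*, *Itga2*, *Itga4*, *Itga5*, *Itga6*, *Itga9*, *Itgav*, *Itgb1*, *Itgb3*, and *Itgb5*, and they were chosen by name out of 21887 protein-coding genes. H3K27ac, a histone acetylation found at active promoters and enhancers, was mapped by ChIP-Seq in liver sinusoidal endothelial cells (LSECs) isolated from mice, to find potential regulatory elements. The 2 H3K27ac libraries are titled C2_H3K27ac and C3_H3K27ac and are called replicates 2 and 3 here. Their labels name no condition that sets them apart, so they were treated as 1 condition. Their 2 input libraries were not analysed here. For each gene, the peaks in the gene body and in 10 kb on each side were collected from the list of each library. Overlapping peaks of the 2 libraries (at least 1 bp) were merged into a region, and a region was called shared when it held a peak of both. A region was at a gene end when it lay within 1 kb of either end of the gene, and distal otherwise. Per the methods, LSECs were taken by anti-CD146 beads from mice that were *dCas9-KRAB* *Cdh5*CreERT2 or from *Col4a1* fl/wt mice with or without *Cdh5*CreERT2, a Cre that an endothelial promoter drives, and were plated on dishes coated with COL1 for 4 hours. Which genotype, treatment, or age belongs to the 2 libraries, and whether these cells had been plated, is not given in the sources used here.

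Each integrin is a pair of 1 α and 1 β chain that spans the membrane and ties the matrix to the actin cytoskeleton through talin and kindlin. The β1 chain pairs with most of the α chains described here. With it, α1 and α2 bind collagens (α1 binds the basement membrane collagen COL4 well), α6 binds laminins, α5 binds fibronectin, and α4 and α9 bind VCAM-1 and matrix ligands such as fibronectin or tenascin. The αv chain also pairs with β3 and β5 and binds vitronectin and other ligands with an RGD motif. Healthy liver sinusoids lack an organised basement membrane, and one forms in fibrosis, so LSECs can meet different integrin ligands in health and disease.

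The lists held 26975 peaks in replicate 2 and 64498 in replicate 3, and since reads are not counted in them, sequencing depth is unknown. Peak strength is given as the fold enrichment over background from the authors' peak caller, and it is ranked within 1 list because the lists are not on 1 scale. Among marker genes, a shared region at a gene end was found for 13 of 18 LSEC markers, against 44.1% of all protein-coding genes. *Stab1*, *Lyve1*, and *Cdh5* were among them, and *Stab2*, *Clec4g*, *Mrc1*, *Tek*, and *Emcn* were not. Such a region was found for 1 of 12 hepatocyte, 0 of 10 hepatic stellate cell, and 1 of 10 Kupffer cell markers. It was found for 1 of 8 lymphocyte, 1 of 8 platelet and megakaryocyte, and 0 of 6 cholangiocyte markers. A shared distal region was found for 16 of 18 LSEC markers, against 39.3% of all protein-coding genes. It was found for 4 of 12 hepatocyte, 2 of 10 stellate cell, and 2 of 10 Kupffer cell markers. It was found for 3 of 8 lymphocyte, 5 of 8 platelet, and 1 of 6 cholangiocyte markers. Among protein-coding genes of at least 22506 bp, 48.9% had a shared distal region. The marker lists were not matched for gene length, so their distal counts are not on an equal footing.

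Promoter sequences help to show where the acetylation lay at the start of these genes. The RefSeq table (GRCm38) holds 300 bases, 250 before and 50 after a gene's start, for 8 of the 10 genes. It has no entry for *Itga6* and *Itgb3*. The 6 promoters below are those of the common β1 chain and of the α chains for RGD ligands, fibronectin, and collagen, with *Itga4* as the gene without peaks. They are written 5′ to 3′. In the promoters of *Itgb1*, *Itgav*, *Itga5*, and *Itga1* the capitals mark the bases inside the replicate 2 peak. In that of *Itga2* they mark the bases inside the replicate 3 peak, since replicate 2 had none there, and in that of *Itga4* no base lay in a peak.
Itgb1, chr8:128685404-128685703, plus strand: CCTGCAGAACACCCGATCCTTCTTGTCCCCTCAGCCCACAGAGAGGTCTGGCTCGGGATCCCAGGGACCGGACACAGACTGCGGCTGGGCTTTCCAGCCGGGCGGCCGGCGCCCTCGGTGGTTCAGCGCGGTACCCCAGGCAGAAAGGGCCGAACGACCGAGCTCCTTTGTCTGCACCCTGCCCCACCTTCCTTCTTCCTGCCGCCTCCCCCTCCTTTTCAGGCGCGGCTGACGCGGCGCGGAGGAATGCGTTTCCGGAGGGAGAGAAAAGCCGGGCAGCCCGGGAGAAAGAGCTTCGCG
Itgav, chr2:83724147-83724446, plus strand: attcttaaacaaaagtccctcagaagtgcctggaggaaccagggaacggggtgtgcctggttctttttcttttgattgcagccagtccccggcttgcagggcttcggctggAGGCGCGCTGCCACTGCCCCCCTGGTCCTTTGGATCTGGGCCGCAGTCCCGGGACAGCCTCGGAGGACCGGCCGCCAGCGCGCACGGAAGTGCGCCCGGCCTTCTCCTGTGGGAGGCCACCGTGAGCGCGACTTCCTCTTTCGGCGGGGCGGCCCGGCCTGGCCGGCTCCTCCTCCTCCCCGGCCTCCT
Itga5, chr15:103366742-103367041, minus strand: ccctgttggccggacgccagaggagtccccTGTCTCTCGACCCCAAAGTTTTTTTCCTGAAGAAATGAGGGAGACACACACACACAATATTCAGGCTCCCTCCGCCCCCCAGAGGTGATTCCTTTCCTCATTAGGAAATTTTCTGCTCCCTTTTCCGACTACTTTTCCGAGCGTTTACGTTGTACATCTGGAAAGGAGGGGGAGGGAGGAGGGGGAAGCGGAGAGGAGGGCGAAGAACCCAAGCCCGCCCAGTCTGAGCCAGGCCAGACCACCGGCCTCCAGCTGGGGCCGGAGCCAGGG
Itga1, chr13:115101915-115102214, minus strand: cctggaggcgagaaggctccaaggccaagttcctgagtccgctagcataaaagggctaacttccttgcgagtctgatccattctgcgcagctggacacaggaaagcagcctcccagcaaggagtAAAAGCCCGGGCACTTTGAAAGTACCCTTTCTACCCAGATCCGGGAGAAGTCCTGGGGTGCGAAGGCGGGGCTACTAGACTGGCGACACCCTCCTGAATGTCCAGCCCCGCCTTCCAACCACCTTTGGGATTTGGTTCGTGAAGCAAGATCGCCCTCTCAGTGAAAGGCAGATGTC
Itga2, chr13:114932051-114932350, minus strand: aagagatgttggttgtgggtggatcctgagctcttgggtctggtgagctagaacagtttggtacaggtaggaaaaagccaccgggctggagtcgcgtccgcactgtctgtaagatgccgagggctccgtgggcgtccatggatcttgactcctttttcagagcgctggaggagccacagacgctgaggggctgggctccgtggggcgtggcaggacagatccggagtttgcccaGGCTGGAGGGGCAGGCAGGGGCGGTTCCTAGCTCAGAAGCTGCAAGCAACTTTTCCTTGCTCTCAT
Itga4, chr2:79255176-79255475, plus strand: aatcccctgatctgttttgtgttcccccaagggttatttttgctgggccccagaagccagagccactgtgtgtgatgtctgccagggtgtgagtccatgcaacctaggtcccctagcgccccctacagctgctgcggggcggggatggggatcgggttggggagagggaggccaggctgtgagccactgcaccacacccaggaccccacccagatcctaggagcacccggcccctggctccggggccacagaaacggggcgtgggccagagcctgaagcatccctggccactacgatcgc
The replicate 2 peak covered all 300 bases at *Itgb1*, 270 at *Itga5*, 189 at *Itgav*, and 176 at *Itga1*. The replicate 3 peak covered all 300 bases of each of these 4 promoters, 208 at *Itgb5*, and 66 at *Itga2*. Over the gene table, 40.7% of 21263 promoters of protein-coding genes were overlapped by a peak of both libraries, beside 4 of the 8 integrin promoters.

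The windows of the 10 genes held 130 regions, of which 47 were shared and 83 had a peak in replicate 3 only. A shared region at a gene end was present for 4 of the 10 genes, *Itga1*, *Itga5*, *Itgb1*, and *Itgb3*, against 44.1% of all protein-coding genes and 50.8% of the 9326 genes at least as long as the shortest of the 10 (22506 bp), a share near the background. A region at a gene end with a replicate 3 peak was present for 8 of the 10, against 53.9% of all protein-coding genes. For *Itga2*, *Itga6*, *Itga9*, and *Itgb5* that peak was in replicate 3 only, a state found for 9.80% of all protein-coding genes, and neither *Itga4* nor *Itgav* had a peak within 1 kb of either end of the gene. A shared distal region was present for 9 of the 10 genes, all but *Itga4*, against 39.3% of all protein-coding genes. These genes are long, with a median window of 101 kb against 37.2 kb. Among the genes at least as long as the shortest of them, the background was 48.9%. That background sets only a lower limit on length and does not match the lengths of the 10 genes. The same 9 genes had a distal region with a replicate 3 peak, against 60.6% of all protein-coding genes. With 2 libraries treated as 1 condition, no test was made, and these counts are descriptions.

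**Figure D1:**
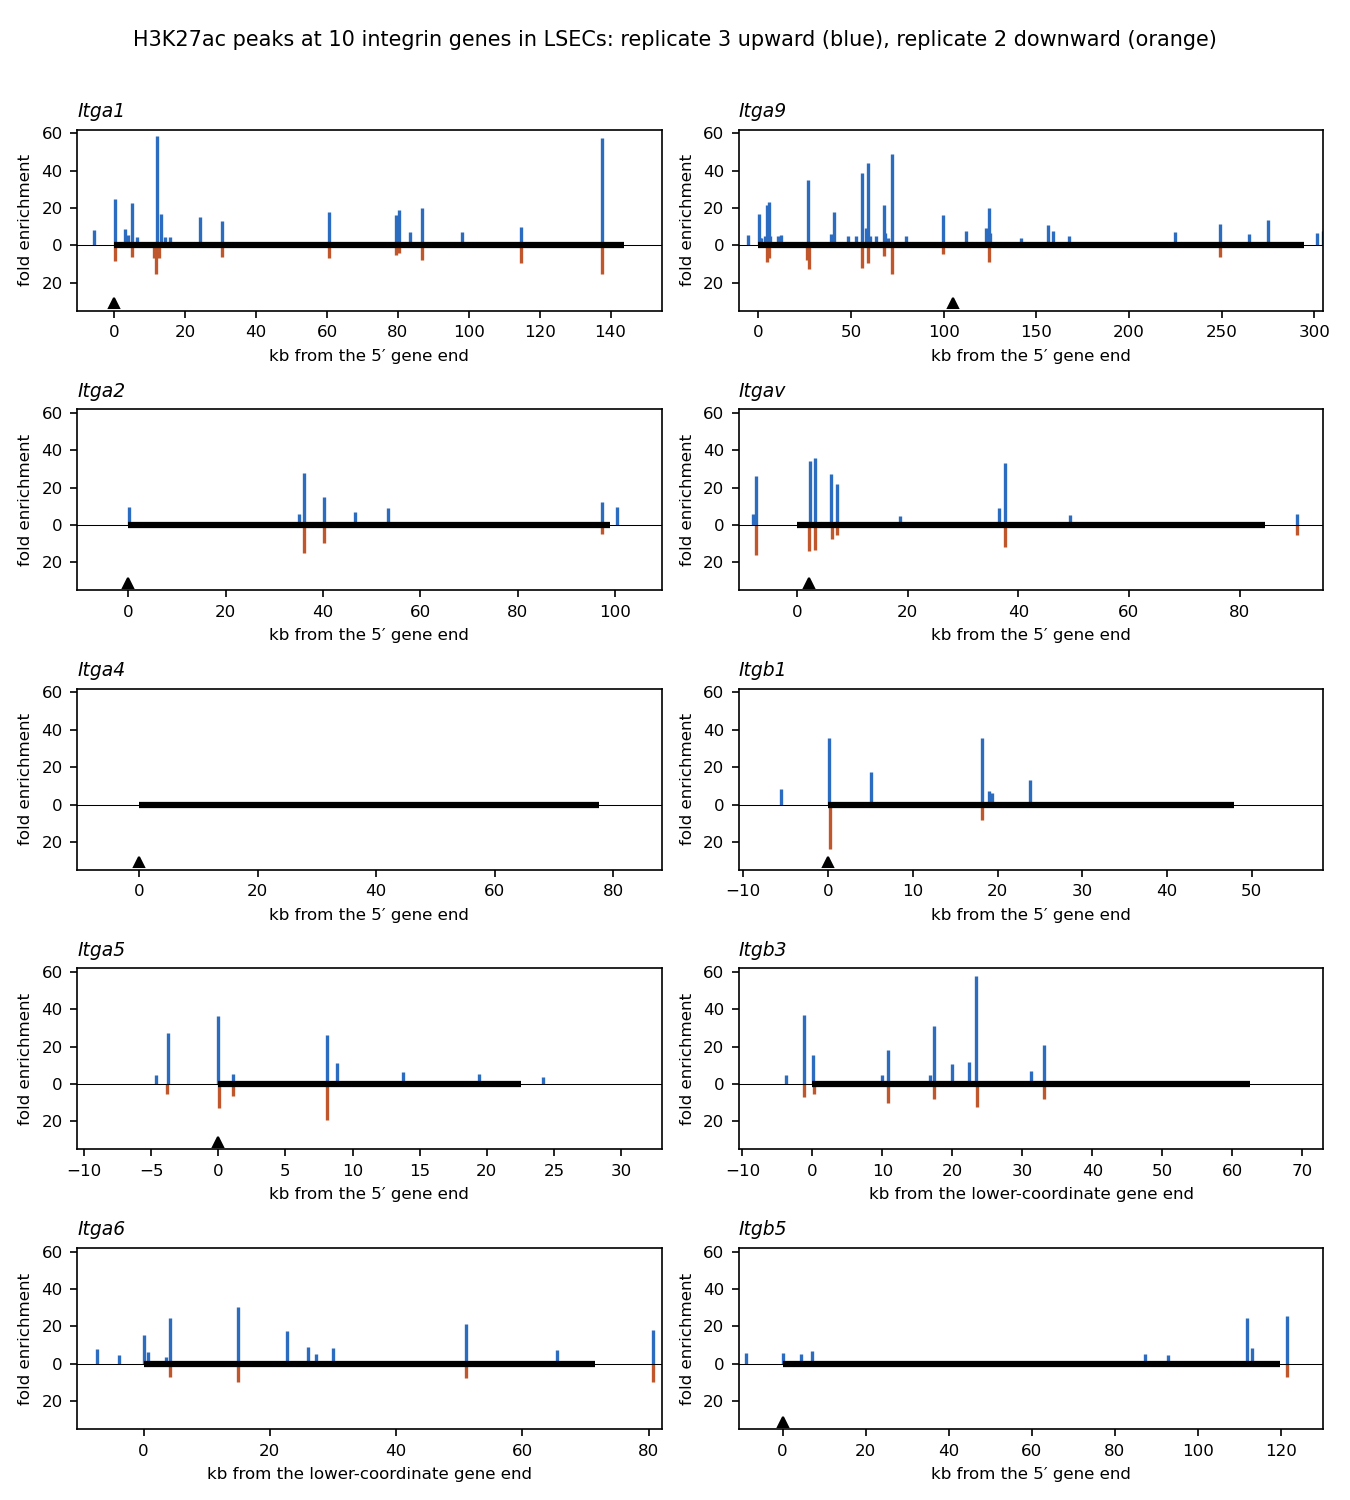
H3K27ac peaks at each integrin gene, with the distance from the gene end in kb on the x axis and the fold enrichment on the y axis, upward for replicate 3 and downward for replicate 2. The thick line is the gene body and the triangle the start in the RefSeq promoter table. *Itga4* is empty, *Itgb1* has its tallest replicate 2 peak (23.7) at the start, and *Itga1*, *Itga9*, and *Itgav* have 9, 10, and 7 shared distal regions.

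*Itgb1*, the gene of the common β1 chain on chromosome 8 (128685654 to 128733579), had the strongest gene-end peak of the group in replicate 2. The region at its 5′ end, 128685002 to 128686629, had fold enrichments of 23.7 (replicate 2) and 35.6 (replicate 3). Both libraries placed the summit almost at the same base, 35 bp past the RefSeq start in replicate 2 and 36 bp in replicate 3. Among the strongest gene-end peaks of all protein-coding genes that had one, this peak was at percentile 72.5 of 9651 genes in replicate 2 and 46.4 of 11792 genes in replicate 3. The gene body held 1 shared distal region, 17.8 kb from the 5′ end, with fold enrichments of 8.54 (replicate 2) and 35.5 (replicate 3). By this measure it was as strong as the promoter in replicate 3 and not in replicate 2. By the peak caller's −log10 of the p-value, it was below the promoter in both. The values were 13.9 against 51.5 in replicate 2 and 143 against 251 in replicate 3. Another 5 distal regions had a replicate 3 peak only, with fold enrichments of 6.21 to 17.3.

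*Itga1* and *Itga2*, the genes of the collagen-binding α chains, lie next to each other on chromosome 13 in the same orientation, 26.0 kb apart, and differed in both classes of regions. *Itga1* (114958079 to 115101964) had a shared region at its 5′ end, with fold enrichments of 8.54 (replicate 2) and 24.8 (replicate 3), at percentiles 16.01 and 32.8 of gene-end peaks. The summits lay 246 bp and 265 bp past the RefSeq start, and not at it as for *Itgb1*. The body of *Itga1* held 9 shared distal regions, or 5.49 per 100 kb of window, at percentile 92.0 of all protein-coding genes and 95.5 of the genes as long as the shortest member.

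The strongest distal region of *Itga1* lay at 115089221 to 115090973 and had fold enrichments of 15.6 (replicate 2) and 58.3 (replicate 3). It also lies at an end of *Pelo*, a gene of ribosome rescue inside the *Itga1* body, so it cannot be ascribed to either gene from these lists. The next strongest, at 114964122 to 114964723 and 6.04 kb from the 3′ end of *Itga1*, had 15.3 and 57.2 and was not near another protein-coding gene. The other 7 ranged from 3.95 to 9.49 in replicate 2 and from 9.77 to 22.7 in replicate 3.

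*Itga2* (114833081 to 114932100) had a peak at its 5′ end in replicate 3 only, with a fold enrichment of 9.52, at percentile 11.7 of gene-end peaks. Of 5252 replicate 3 peaks within 10% of that strength, 20.4% had a replicate 2 peak, so most peaks this weak were missing from replicate 2. The gene held 3 shared distal regions. The strongest, 35.9 kb from the 5′ end, had 14.9 in replicate 2 and 27.8 in replicate 3, and it was stronger than the gene's start in replicate 3, while replicate 2 had no peak at the start. Between the bodies of *Itga2* and *Itga1* lay 1 region, outside both windows and shared, at 114945691 to 114946251, with 11.5 in replicate 2 and 17.4 in replicate 3.

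*Itga6*, the gene of the laminin-binding α6 chain on chromosome 2 (71786886 to 71858427), had no replicate 2 peak at a gene end and 4 shared distal regions. The replicate 3 list placed 2 peaks at its lower-coordinate end, with fold enrichments of 15.3 and 6.51. The stronger was at percentile 20.5 of gene-end peaks, and 57.0% of 3411 replicate 3 peaks within 10% of its strength had a replicate 2 peak. The shared distal regions were close in strength to each other, from 7.32 to 9.82 in replicate 2 and from 18.0 to 30.3 in replicate 3. The strongest of them, at 71801604 to 71802058, lay 14.7 kb inside the gene. No other annotated gene reached into the window of *Itga6*.

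*Itga5*, the gene of the fibronectin-binding α5 chain on chromosome 15 (103344286 to 103366791), is the shortest of the 10 and had 2 shared regions at its 5′ end. The region over the start had fold enrichments of 12.9 (replicate 2) and 36.3 (replicate 3), at percentiles 36.1 and 47.1 of gene-end peaks. The second, 0.799 kb away, was weak, with 6.10 in replicate 2 and 5.26 in replicate 3, and was the only shared region of all 47 that had the lower value in replicate 3. The body held a shared distal region 7.68 kb from the start, with 19.0 in replicate 2 and 26.1 in replicate 3. By fold enrichment, this region exceeded the promoter in replicate 2 and not in replicate 3. By the peak caller's −log10 of the p-value, it exceeded the promoter in both. The values were 38.7 against 23.4 in replicate 2 and 164 against 160 in replicate 3. Another shared distal region lay upstream of the start by 3.57 kb, with fold enrichments of 5.49 and 27.3.

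*Itgav*, the gene of the αv chain on chromosome 2 (83722303 to 83806917), had no region within 1 kb of a gene end, but this count depends on where the gene is taken to start. The RefSeq promoter of *Itgav* begins its transcript 2.09 kb inside the annotated gene body, and a shared region covered that start. This region, 83724072 to 83725219, had fold enrichments of 14.2 (replicate 2) and 34.5 (replicate 3), with summits 44 and 40 bp past the RefSeq start. A second shared region 0.896 kb farther on had 13.4 and 35.8. Counted within 1 kb of the RefSeq promoter start, 4 of the 8 genes with an entry had a shared region. *Itgav* was among them with *Itga1*, *Itga5*, and *Itgb1*. The share of all protein-coding genes by this rule was not computed.

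By the gene-end rule, *Itgav* had 7 shared distal regions, or 6.69 per 100 kb, the highest density of the 10 and at percentile 94.2 of all protein-coding genes. Those 2 regions at the RefSeq start are among the 7. Without them, the density of *Itgav* would be below the 5.49 per 100 kb of *Itga1*. Another of the 7 lies at an end of *Fam171b* downstream, and was weak, with 5.39 in replicate 2 and 5.86 in replicate 3. The remaining 4 had 5.49 to 16.3 in replicate 2 and 22.0 to 32.9 in replicate 3, and the strongest in replicate 2 lay 7.21 kb outside the annotated start.

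*Itgb3* and *Itgb5*, the genes of the β chains that pair with αv, differed from each other. *Itgb3*, on chromosome 11 (104608000 to 104670476), had 2 shared regions at its lower-coordinate end. The outer, 0.783 kb from the end, had fold enrichments of 7.03 (replicate 2) and 37.0 (replicate 3), and the inner had 5.42 and 15.6. Their rank differed between the libraries, since the outer was at percentile 9.12 of gene-end peaks in replicate 2 and 48.0 in replicate 3. The body of *Itgb3* held 4 shared distal regions, and the strongest, 22.9 kb inside, had 12.2 in replicate 2 and 57.6 in replicate 3. It exceeded both gene-end regions in each library. β3 is also a chain of the platelet fibrinogen receptor, whose α chain gene *Itga2b* had no region at a gene end in either library. *Itga2b* had 6 distal regions with a replicate 3 peak, of which 2 were shared. Of the 8 platelet and megakaryocyte markers, 1 had a shared region at a gene end (*Pf4*, with 5.42 in replicate 2 and 5.54 in replicate 3), 5 had a shared distal region, against 39.3% of all protein-coding genes, and 1 had no peak in its window. The part of platelets in the *Itgb3* regions was not tested.

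*Itgb5*, on chromosome 16 (33829665 to 33949338), had the weakest gene-end peak of the 8 genes with one. It was in replicate 3 only, with a fold enrichment of 5.54 at percentile 3.44, although the RefSeq start lay inside it. Its only shared region lay 1.54 kb outside the 3′ end, with 7.15 in replicate 2 and 25.7 in replicate 3. A distal region 7.67 kb inside the same end had 24.6 in replicate 3 and no peak in replicate 2. Of 2527 replicate 3 peaks within 10% of that strength, 91.2% had a replicate 2 peak, so the 2 libraries differed here more than at most peaks of this strength.

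*Itga4* and *Itga9*, the genes of the α chains that bind VCAM-1 among other ligands, were the members with the fewest and the most regions. *Itga4*, on chromosome 2 (79255426 to 79333114), had 0 peaks in its window of 97.7 kb in both libraries, as did 30.0% of all protein-coding genes and 19.4% of those as long as the shortest member. The nearest peak to its body was 178 kb away in both lists. α4 is abundant on lymphocytes and monocytes.

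*Itga9*, on chromosome 9 (118606709 to 118901003), is the longest of the 10, at 294 kb, and had 10 shared distal regions and 28 in replicate 3 only. Per 100 kb it had 3.18 shared distal regions, fewer than *Itga1* or *Itgav*, and was at percentile 80.03 of all protein-coding genes. Of the 10, 9 lay in the 5′ part of the body up to its midpoint. The strongest (118678277 to 118678772) had fold enrichments of 15.3 (replicate 2) and 49.0 (replicate 3), and the weakest in replicate 2, at 118706084 to 118706967, had 4.65 and 16.2. At the annotated 5′ end of *Itga9*, replicate 3 had a peak of 16.6 at percentile 21.9 and another of 3.71, and replicate 2 had none. Of 3416 replicate 3 peaks within 10% of the former, 64.0% had a replicate 2 peak. The RefSeq promoter of *Itga9* lies 105 kb farther in, and the nearest peak to it was 5.29 kb away in replicate 2 and 4.73 kb in replicate 3.

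**Figure D2:**
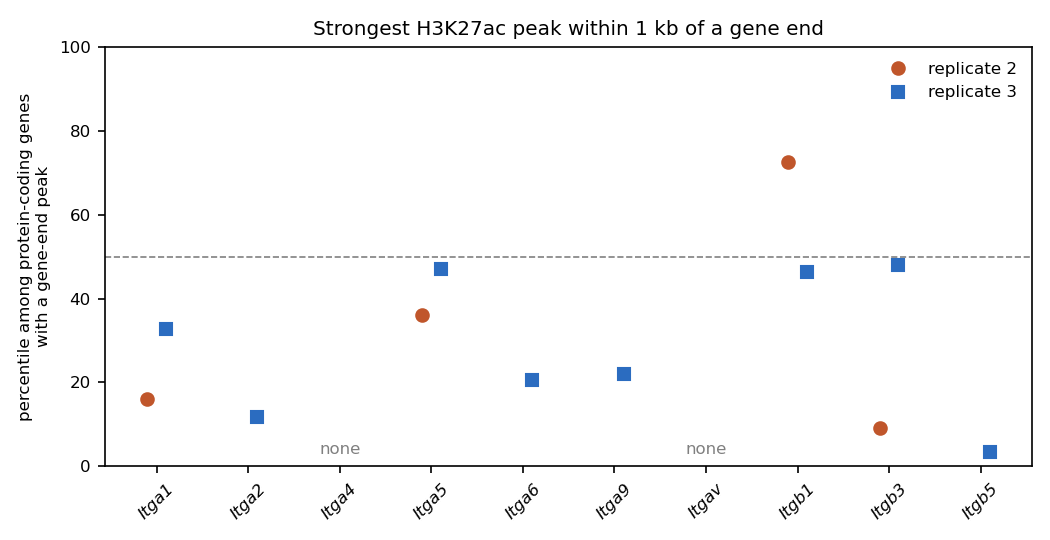
Percentile, by fold enrichment, of the strongest gene-end peak of each integrin gene (x axis) among all protein-coding genes with a gene-end peak in the same library (y axis), with circles for replicate 2 and squares for replicate 3. The dashed line is percentile 50. Only *Itgb1* in replicate 2 (72.5) lies above it, and *Itga4* and *Itgav* have no gene-end peak.

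Ranked within their list by fold enrichment, most gene-end peaks of integrin genes were below the median. In replicate 3, this held for the 8 genes with such a peak among the 11792 genes that had one, with percentiles from 3.44 to 48.0. Ranked by −log10 p instead, *Itgb1* in replicate 3 was at percentile 62.3, above the median, and the other 7 stayed below it. In replicate 2, 3 of 4 were below the median, and *Itgb1* was above it. The median fold enrichment of the strongest gene-end peak was 10.7 in replicate 2 (4 genes) and 20.7 in replicate 3 (8 genes), against 16.3 and 38.7 over all protein-coding genes with such a peak. The distance of 1 kb decided the class of several regions. The region of *Itgb3* at 0.783 kb and that of *Itga5* at 0.799 kb were inside it. Both genes also had a shared region over the gene end, so their calls did not depend on these. Within 0.5 kb the count of genes with a shared gene-end region stayed at 4. The regions of *Itgb5* at 1.54 kb, *Itga2* at 1.57 kb, and *Itgav* at 1.77 kb were outside the distance of 1 kb.

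**Figure D3:**
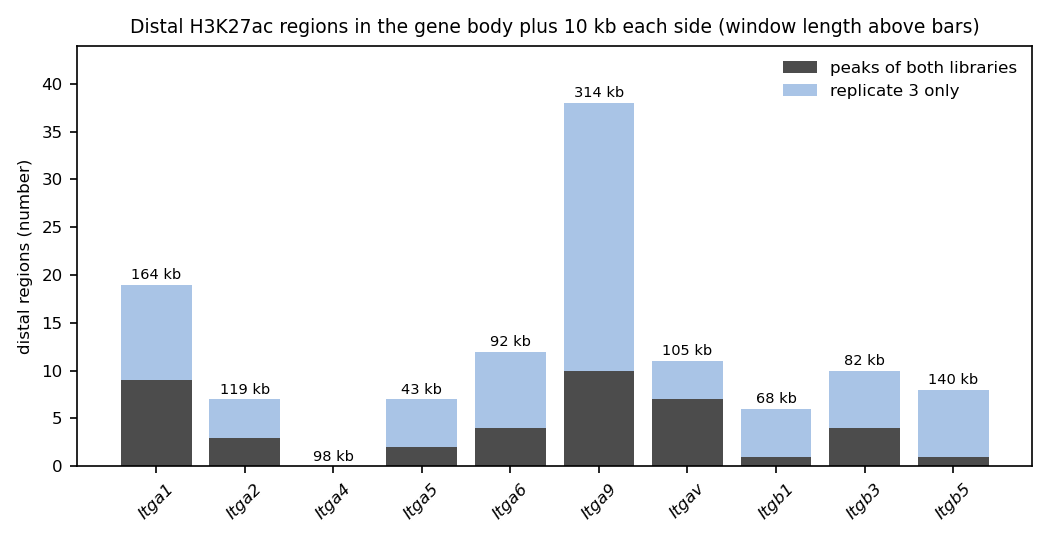
Number of distal H3K27ac regions (y axis) in the window of each integrin gene (x axis), with peaks of both libraries in dark grey and replicate 3 only in light blue, and the window length above each bar. *Itga9* has 38 distal regions in 314 kb, *Itgb1* has 6 in 67.9 kb, and *Itga4* has 0.

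Distal regions made up 118 of the 130 regions, and 41 of them were shared. Of the 41, 36 lay in a gene body and 5 in a flank, and exons and introns were not told apart, since the annotation used gives gene bodies only. The shared distal regions had median fold enrichments of 8.54 (replicate 2) and 23.3 (replicate 3). The 77 distal regions with a replicate 3 peak only had a median of 6.56 and were narrower, with a median width of 271 bp against 496 bp. The same contrast held over all regions of the genome, gene-end and distal together. Their replicate 3 medians were 27.03 for shared regions and 6.20 for those with a replicate 3 peak only. Other protein-coding genes with an end in a flank were *Mocs2* (at *Itga2*), *Zfp385a* (at *Itga5*), *Fam171b* (at *Itgav*), and *Muc13* and *Umps* (at *Itgb5*), and of the 41 shared distal regions 2 lay within 1 kb of an end of another protein-coding gene, *Pelo* and *Fam171b*. No region of the 10 genes had a peak in replicate 2 only. By density of shared distal regions, *Itga1*, *Itga5*, *Itga6*, *Itgav*, and *Itgb3* were above percentile 90 of the genes as long as the shortest member, of which 48.9% had any such region, and *Itgb1* and *Itgb5* were at percentiles 65.7 and 55.6.

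**Figure D4:**
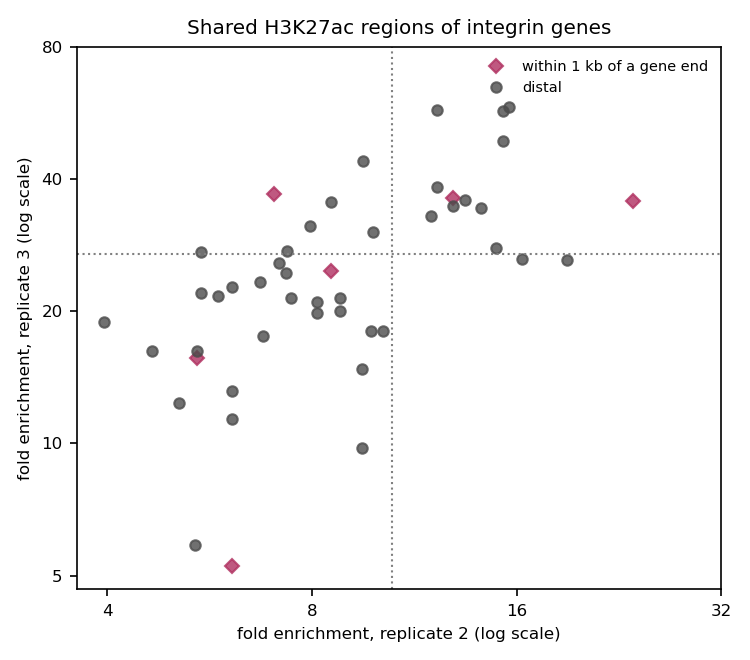
Fold enrichment of the 47 shared regions of the integrin genes in replicate 2 (x axis, log scale) and replicate 3 (y axis, log scale), with diamonds for gene-end regions and circles for distal ones. Dotted lines are the medians of all shared regions of the genome (10.48 and 27.03). The medians of the 47 regions, 8.54 and 24.4, are below them, and distal regions reach 58.3 in replicate 3. Of the 47, 41 are distal, whereas the genome medians join gene-end and distal regions, so the sets are not alike.

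At these genes the replicate 2 peaks were a subset of the regions with a replicate 3 peak. All 50 replicate 2 peaks in the windows had a replicate 3 peak, as did 99.2% of all replicate 2 peaks. Of 130 replicate 3 peaks, 47 (36.2%; 95% Wilson interval, 28.4% to 44.7%, for counting error only) had a replicate 2 peak, against 37.7% of all replicate 3 peaks. Peaks of 1 gene are not independent of each other. The summits of the 47 shared regions lay a median of 24 bp apart, and 30 bp over the 24199 shared regions of the genome, with the widest distance, 159 bp, at the inner gene-end region of *Itgb3*. The rank correlation of the fold enrichments of the 2 libraries (Spearman's rho) was 0.66 over the 47 regions and 0.84 over all shared regions, as a description over regions that share 2 libraries. Replicate 3 had the higher fold enrichment in 46 of the 47, with a median ratio of 2.88, against 2.47 over all shared regions. Of the 47, 41 are distal, and the set of all shared regions was not split by class. These values therefore do not compare like regions.

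The other integrin genes and the genes of proteins that act with integrins inside the cell were counted by the same rule. Differences between these lists were not tested, and the lists were not matched for gene length. Of 16 other integrin genes, 1 had a shared region at a gene end (*Itga8*, with fold enrichments of 6.16 (replicate 2) and 14.0 (replicate 3)), against 44.1% of all protein-coding genes, and 11 had a shared distal region, against 39.3%. Another 6, *Itga3*, *Itga10*, *Itgax*, *Itgb2*, *Itgb7*, and *Itgb8*, had a gene-end peak in replicate 3 only, with strongest values of 3.46 to 13.0. That state was found for 9.8% of all protein-coding genes. *Itga3* encodes another laminin-binding α chain and *Itga10* another collagen-binding one, and *Itgb2* encodes the β chain of leukocytes. *Itgb6* and *Itga3* held 3 shared distal regions each, *Itga8* and *Itga2b* held 2 each, *Itga10*, *Itgb2*, *Itgb7*, *Itgal*, *Itga7*, *Itgae*, and *Itgb4* held 1 each, and *Itga11* had a distal region in replicate 3 only. *Itgam* and *Itgad*, genes of leukocyte α chains, had no peak.

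Of 30 genes whose proteins link integrins to actin or signal from them, 18 had a shared region at a gene end. The share of all protein-coding genes was 44.1%. For 6, the gene-end peak was in replicate 3 only, against 9.8%. A shared distal region was present for 22, against 39.3%. Among protein-coding genes of at least 22506 bp, 50.8% had a shared gene-end region and 48.9% a shared distal one. Within 2.5 kb of a gene end, 20 of these 30 genes and 7 of the 10 integrin genes had a shared region. The share of all protein-coding genes at that distance was not computed, so these counts cannot be set against 44.1%. For *Itga2* and *Itgb5* the region within 2.5 kb lay at the 3′ end. By replicate 2, the strongest gene-end regions of the 30 genes were those of *Vcl* (vinculin), with 42.0 in replicate 2 and 116 in replicate 3, and *Zyx* (zyxin), with 40.9 and 158. *Lims1* (the adaptor PINCH), with 34.5 and 119, and *Ilk* (integrin-linked kinase), with 33.2 and 78.1, came next. These were picked as the highest of the 30, and each exceeded every gene-end region of the 10 integrin genes in both libraries. Over all of the 30 genes with a gene-end peak, the median of the strongest was 20.5 in replicate 2 and 53.7 in replicate 3. For the 10 integrin genes it was 10.7 and 20.7. The talin genes differed, since *Tln1* had a shared region at a gene end (18.3 and 57.6) and *Tln2* had no peak in its window. Among the kindlin genes, *Fermt2* and *Fermt3* had a shared gene-end region and *Fermt1* a replicate 3 peak only. *Tln2*, *Tln1*, and the kindlin genes were named after their values were seen.

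The promoters with a RefSeq entry, of which those of *Itgb5* and *Itga9* are not printed above, also differed in base composition. The 300 bases of *Itgb1* held 27 CpG dinucleotides, those of *Itgav* 24, *Itgb5* 20, *Itga2* and *Itga5* 13 each, *Itga1* 12, and *Itga4* and *Itga9* 10 each. The table's *Itga9* entry lies 105 kb inside the gene body, so its values here do not describe the annotated 5′ end of that gene. Over all protein-coding genes the median was 24 for promoters under a peak of both libraries, 16 for those under a replicate 3 peak only, and 4 for those under none. *Itga4*, whose promoter is printed above without capitals, therefore held more CpG than the median promoter without a peak, and *Itgb5* held more than *Itga5* or *Itga1* with a weaker peak.

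Motifs were searched on both strands of the same 300 bases, as a description only. The GC box GGGCGG was present in 6 of the 8 promoters (all but *Itga1* and *Itga9*), against 46.2% of 21263 promoters. It was also present in *Itga4*, which had no peak. The ETS core CCGGAA was present in *Itgb1* alone, against 18.7% of promoters, and the AP-1 motif TGANTCA in the *Itga9* entry inside the gene body alone, against 6.99%. The E box CANNTG was present in 5 of 8, against 69.0%. The CRE motif TGACGTCA, the TATA box TATAAA, the NF-κB motif, and the GATA motif AGATAA were in none of the 8, against 2.23%, 12.6%, 4.98%, and 9.65% of promoters. Matches of different motifs could share bases.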

How the data were processed

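H3K27ac ChIP-Seq peaks from 2 LSEC libraries were used. The authors made 1 peak list per library and did not pool them. The submitters' processing notes name cutadapt (0.4.4), BWA (0.7.17), Picard (1.67), MACS2 (2.0.10), bedtools (2.27.1), and the build mm10 (GRCm38). The roles of the tools and the use of the inputs are not given in the sources used here. The methods call the assay tagmentation assisted, whereas the sample records describe sonication. The deposited columns hold each peak's start, end, and summit, the fold enrichment over background (a ratio), the −log10 of the p-value and of the q-value, and a score that is the latter rescaled. In the deposited lists −log10 q starts at 2.04 (replicate 2) and 2.01 (replicate 3). A library with more reads or better enrichment yields more and wider peaks, which changes every count of shared regions.

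Genes on chromosomes 1 to 19, X, and Y were taken from the RefSeq table of GRCm38, and promoters from RefSeq. Positions are counted from 1. Peaks were merged across libraries at an overlap of 1 bp, and a gene's 5′ end was taken from the strand in the promoter table. The overlap step was first run on simulated peaks planted at the same gene starts in both libraries. That run checked only that planted peaks were recovered, and not distal regions or false calls. Percentiles are shares of a list with a lower value. The 10 genes and all lists were chosen with earlier results of these data known. The text names every one of the 10, the other integrin genes with a peak, the 4 adhesion genes with the strongest shared gene-end region in replicate 2, and protein-coding genes with an end in a 10 kb flank. *Pelo* was named after its values were seen. The alternatives took peaks with q at most 1e-05, equal numbers of peaks, reciprocal overlap of at least 50%, other distances (0.5, 2.5, and 25 kb), the promoter start, ranking by p-value, and each library alone. Intervals came from scipy 1.17.1, tables from pandas 2.3.3 and numpy 2.4.6, and plots from matplotlib 3.10.9, run in Python 3.11.15.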

Additional observations from a re-analysis of the deposited data

How the results depend on the processing

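No paired analysis was possible because both analysed libraries were treated as 1 condition, with no test, and inputs of the same number were not used here. Over 7 main values and 52 alternatives, 39 alternatives stayed within their limit and 13 moved. The limit was a fixed ratio to the main value for counts and the Wilson interval for the share. For the median percentile it was the standard deviation of the 2 libraries' medians. Changes of direction were not assessed. The number of integrin genes with a shared region at a gene end, 4, was 2 with reciprocal overlap of at least 50% and 7 within 2.5 kb. It reached 8 without replicate 2 and stayed at 4 without replicate 3 and within 0.5 kb of a gene end. The number of their shared distal regions, 41, was 19 with reciprocal overlap, was 45 without replicate 3 and 118 without replicate 2, and was 39 when regions near the RefSeq promoter start were left out, an alternative chosen after seeing the data, as was the background of long genes. Of the replicate 3 peaks, the 36.2% that had a replicate 2 peak became 79.6% when both lists were reduced to the length of the shorter and 16.2% with reciprocal overlap. The count for the other integrin genes, 1, was 0 with reciprocal overlap, 4 within 2.5 kb, 2 by the promoter start, and 1 to 7 with each library left out. That for the adhesion genes, 18, was 10 with reciprocal overlap, 20 within 2.5 kb, and 17 to 24 with each library left out. The share of all protein-coding genes with such a region was not computed under these alternatives. The median percentile of gene-end peaks in replicate 3, 27.3, was 25.6 when ranked by −log10 p, which put *Itgb1* in replicate 3 at 62.3 in place of 46.4. Reciprocal overlap is stricter by construction, a wider distance or a single library looser, and the cause of the other changes was not tested. Without read depth, a missing replicate 2 peak cannot be told from one too weak to be called.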
